A study of Mus musculus with 6 samples.

Results

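Pigment cell and Schwann cell markers of the neural crest, 8 genes in all, were followed in dissected retinal pigmented epithelium (RPE) of mouse embryos. They are *Kit*, *Ednrb*, *Mc1r* and *Erbb3*, which encode receptors, and *Sox10*, *Pax3*, *Foxd3* and *Snai2*, which encode transcription factors. Each was represented by the probe set that carries its symbol and no other, the one with the highest mean signal where a gene has several. This gave 8 of 8 listed genes, among 19938 genes that could be represented in this way. RPE was taken at E15.5 from C57BL/6J embryos and measured on Affymetrix Mouse Gene 1.0 ST arrays, 3 labelled control and 3 labelled mutant. All embryos carry *Pax6loxP/loxP*, with both *Pax6* alleles flanked by *loxP* sites. The mutant embryos carry *DctCre* in addition (*Pax6loxP/loxP;DctCre*), in which Cre recombinase under the *Dct* promoter removes the *Pax6* exons for the start codon and the paired domain, while transcripts without the paired domain remain. The controls were littermates. Each sample was a tube of RPE pooled by the intensity of pigmentation, so an array stands for a pool of embryos and not for 1 animal. Tail tissue of the embryos was kept to verify the genotypes.

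Pigment cells of the mouse eye have separate embryonic origins. The RPE arises from the neuroepithelium of the optic cup, whereas the melanocytes of the choroid, the vascular layer behind it, arise from the neural crest, which also gives rise to the Schwann cells of the ciliary nerves. Both kinds of pigment cell use MITF and the same enzymes of melanin synthesis, so a pigment gene does not tell them apart. Neural crest pigment cells additionally depend on SOX10 and PAX3, which activate *Mitf* in them, on the receptor KIT for survival and migration, and on the endothelin receptor EDNRB for expansion. Glial precursors also use SOX10, and need ERBB3 to receive neuregulin along axons. Several of these genes are expressed in other cells too: *Kit* in mast cells, *Ednrb* in endothelium and *Snai2* in mesenchyme. In RNA of a whole tissue, fewer cells of a type and less RNA per cell cannot be told apart.

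*Pax6*, the targeted gene, gave log2 signals of 9.15, 9.02 and 9.22 on the control-labelled arrays and 9.00, 8.97 and 8.74 on the mutant-labelled arrays. The difference, mutant-labelled minus control-labelled as for every signed value here, was -0.23 (95% confidence interval from -0.43 to -0.03, adjusted p = 0.73). Because of those remaining transcripts, this signal checks the labels only in part. A deposited table of group means carries the group names the other way round. Of its 100 entries, 90 were matched to a probe set, and both group means lay within 0.1 of those of the arrays in 0 of them as labelled and in 90 with the names exchanged. For those entries the signs here oppose that table and the direction in which the study describes its mutant. None of the 8 marker genes is among the entries of that table. Apart from the arrays, the study reported lower *Tyr*, *Tyrp1*, *Si* (*Pmel*) and *Mlana* transcripts by QRT-PCR and paler RPE in its mutant. Signs of pigment genes below follow the array labels and are opposite to those measurements. A rise under the mutant label is therefore not a statement on *Pax6* loss. All signs below would turn if the array labels were exchanged, whereas sizes and p-values would not change. Median log2 signals lay between 4.86 and 4.93 on all 6 arrays. The tissue label was checked on 12 RPE genes: *Otx2*, an RPE transcription factor, had a mean log2 signal of 9.15 and 9.05 in the control-labelled and mutant-labelled groups, whereas *Rpe65*, the isomerase of the visual cycle, was at 2.34 in both. In all, 10 of the 12 were brighter than the dim reference described next, and *Rpe65* and *Lrat*, an enzyme of retinoid storage, were not. Of all 23410 named probe sets 17621 were brighter than that reference too, so this count says little of the tissue.

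All 8 marker genes were above the dim end of the scale on all 6 arrays. Genes of odorant and vomeronasal receptors, which are silent outside sensory neurons, served as a reference for dim probe sets: the median log2 signal of 1190 of them was 2.59 and their 95th percentile 3.69. Each marker gene lay above that percentile, taken within each array, on 6 of 6 arrays, whereas *Rpe65* lay below it on all of them. By mean signal, 17621 of the 23410 probe sets with a gene name also lay above that percentile. A place above it is therefore common and not particular to the markers. *Mc1r* and *Pax3* came closest to the reference, brighter than 99.2% of its genes, and *Kit*, *Ednrb*, *Erbb3* and *Snai2* were brighter than all 1190. Among the 23410 probe sets with a gene name the markers stood between the percentiles 37.4 (*Mc1r*) and 84.2 (*Ednrb*). A signal depends on its probes as well as on the transcript, so these ranks are neither transcript numbers nor a test of detection. Apart from ranks against this reference, signals are compared below between arrays, within a gene or within the mean or sum of a fixed list. In such means and sums the genes differ in brightness, and the brightest weigh most in a sum.

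For *Kit*, the receptor of stem cell factor, the control-labelled arrays read 7.62, 7.82 and 7.79 in log2 signal and the mutant-labelled arrays 7.73, 7.70 and 7.61. The groups overlapped, and the lowest array of each was at nearly the same signal. The difference was -0.06 (standard error 0.07, 95% interval from -0.23 to 0.11, adjusted p = 0.99 by limma over all named probe sets). For *Ednrb*, the endothelin receptor B, the readings were 7.79, 8.02 and 8.03 under the control label and 7.86, 7.97 and 8.07 under the mutant label. Replicate 1 was the lowest in either group, and the spread within a group was wider than the distance between the means. The difference was 0.02 (standard error 0.09, 95% interval from -0.18 to 0.22, adjusted p = 0.99).

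*Erbb3*, which receives neuregulin in the Schwann lineage, read 7.68, 7.87 and 7.77 on the control-labelled and 7.80, 7.75 and 7.92 on the mutant-labelled arrays, again with overlap. Its difference was 0.05 (95% interval from -0.12 to 0.22, adjusted p = 0.99). *Mc1r*, the melanocortin receptor that directs melanocytes to black eumelanin, read 4.67, 4.58 and 4.56 on the control-labelled and 4.60, 4.79 and 4.70 on the mutant-labelled arrays. Arrays of both groups interleaved, with the lowest labelled control and the highest labelled mutant. Its difference was 0.09 (95% interval from -0.07 to 0.25, adjusted p = 0.97).

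**Figure D1:**
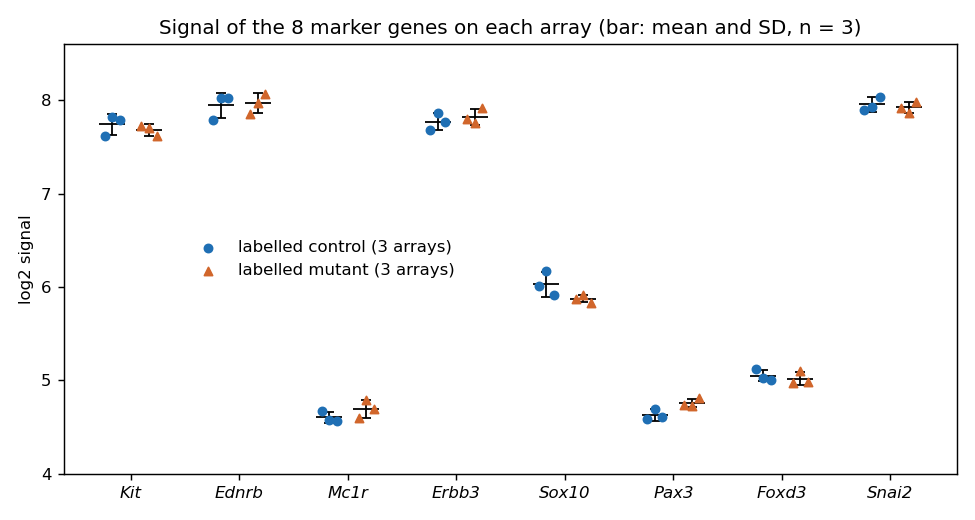
Log2 signal (y axis) of the 8 marker genes (x axis) on each array: circles are the 3 arrays labelled control, triangles the 3 labelled mutant, and bars the mean and SD of each group. Groups overlap for 6 genes and are separate for *Sox10* and *Pax3*, and heights of different genes depend on their probes and are not to be compared.

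Of the transcription factors, *Sox10*, the factor of both the melanocyte and the Schwann lineage, read 6.01, 6.17 and 5.91 on the control-labelled and 5.88, 5.91 and 5.83 on the mutant-labelled arrays. The groups did not overlap, but they touched, since the lowest control-labelled array and the highest mutant-labelled array both round to 5.91. The difference was -0.16 (95% interval from -0.33 to 0.02, unadjusted p = 0.073, adjusted p = 0.87), which is 0.898-fold with an interval from 0.796 to 1.01. *Pax3*, a paired box factor of crest and melanoblasts, read 4.58, 4.70 and 4.61 on the control-labelled and 4.74, 4.73 and 4.81 on the mutant-labelled arrays. Here the mutant-labelled arrays were the brighter, the opposite of *Sox10*, and control replicate 2 lay closest to them. The difference was 0.13 (95% interval from -0.01 to 0.26, unadjusted p = 0.064, adjusted p = 0.86), or 1.09-fold. *Sox10* and *Pax3* thus differed in opposite directions by amounts that did not pass the test.

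*Foxd3*, which maintains neural crest progenitors, read 5.12, 5.03 and 5.01 on the control-labelled and 4.97, 5.10 and 4.98 on the mutant-labelled arrays. *Snai2*, which acts when crest cells leave the epithelium, read 7.90, 7.93 and 8.04 against 7.92, 7.87 and 7.99. Both genes overlapped between the groups, and both varied less over the 6 arrays than most probe sets, at the percentiles 22.5 and 22.9 of the SD of all named probe sets. Each had a difference of -0.03 (95% interval from -0.18 to 0.12, adjusted p = 0.99).

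None of the 8 marker genes passed the test. At an adjusted p under 0.05, 0 of 8 were called by limma, beside 0.363% of all 23410 probe sets tested (66 higher and 19 lower). At an unadjusted p under 0.05, 0 of 8 were called by limma, beside 6.07% of all probe sets. By the methods' t-test on the same values 0 of all 23410 probe sets passed after adjustment, so its adjusted counts tell nothing of any list. Without adjustment 1 of 8, *Pax3*, was under the threshold, beside 5.63% of all probe sets (1319). The groups did not overlap for 2 of 8, *Sox10* and *Pax3*, beside 11.0% of all probe sets. Of the 8 differences 4 were above 0 and 4 below, their median was -0.0049 (-3.5e-05 over all probe sets tested), and they lay between -0.16 and 0.13. In absolute size their median stood at the percentile 52.1 of all probe sets. A p that misses the threshold does not show equal levels, but the intervals bound the differences: the lowest began at -0.33 (*Sox10*) and the highest ended at 0.26 (*Pax3*) on the log2 scale. With 3 arrays against 3, the smallest two-sided p of an exact permutation test is 0.1.

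The ligands and partner receptors were measured on the same arrays. Of 16 such genes 13 were analysed here, 0 of 13 passed limma's test at the adjusted or the unadjusted threshold, and 0 of 13 the methods' t-test without adjustment. Their differences lay between -0.30 and 0.17, with a median of -1.5e-04. *Asip*, which encodes the agouti antagonist of MC1R, was not analysed here. *Kitl*, which encodes the KIT ligand stem cell factor, read 6.65, 6.74 and 6.67 on the control-labelled and 6.75, 6.67 and 6.78 on the mutant-labelled arrays (difference 0.04, adjusted p = 0.99). *Edn3*, the ligand of EDNRB, read 6.72, 7.03 and 7.05 against 6.85, 7.00 and 7.18 (difference 0.07, adjusted p = 0.99). Neither ligand separated the groups. The array order of *Edn3* was that of its receptor: from the lowest to the highest signal, both ran through control 1, mutant 1, mutant 2, control 2, control 3 and mutant 3. The orders of *Kitl* and its receptor differed: *Kitl* was lowest on control 1 and highest on mutant 3, *Kit* lowest on mutant 3 and highest on control 2. A relation between ligand and receptor signals was not tested.

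No partner of the other receptors passed the test. *Nrg1*, which encodes the neuregulin that signals through ERBB3, had a mean log2 signal of 4.27 ± 0.17 in the control-labelled group and 4.11 ± 0.10 in the mutant-labelled group (SD, n = 3; difference -0.16, adjusted p = 0.93 by limma). *Erbb2*, which encodes the catalytic partner of ERBB3, had 8.09 ± 0.01 and 8.11 ± 0.05, a difference of 0.02 (adjusted p = 0.99). *Pomc*, the precursor of the melanocortins that activate MC1R, had 4.46 ± 0.05 and 4.38 ± 0.18 (difference -0.08, adjusted p = 0.99). *Edn1*, endothelin 1, had the second smallest p of this list after *Nrg1*, at 5.38 ± 0.09 and 5.55 ± 0.22 (difference 0.17, adjusted p = 0.94).

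Among other genes of the Schwann lineage, none passed either. Of 12 listed, 10 were analysed here, and 0 of 10 passed limma's test at either threshold or the methods' t-test without adjustment. *S100b*, a calcium-binding protein of glia, read 4.05, 3.95 and 4.03 on the control-labelled and 3.75, 3.94 and 3.93 on the mutant-labelled arrays (difference -0.14, adjusted p = 0.88). Its groups were separate by the second decimal only. *Cdh19*, a cadherin of Schwann cell precursors, was at 2.91 ± 0.14 and 2.82 ± 0.14, brighter than 70.3% of the odorant and vomeronasal receptor genes and below their 95th percentile on all 6 arrays. In this list 9 of 10 differences were below 0, with a median of -0.04 and a range from -0.14 to 0.04. Over all 23410 probe sets 11709 were below 0, and so were 5 of 5 neural retina genes. Genes measured on the same arrays are not independent, so the sign count cannot be read as a trait of this lineage, which was not tested.

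**Figure D2:**
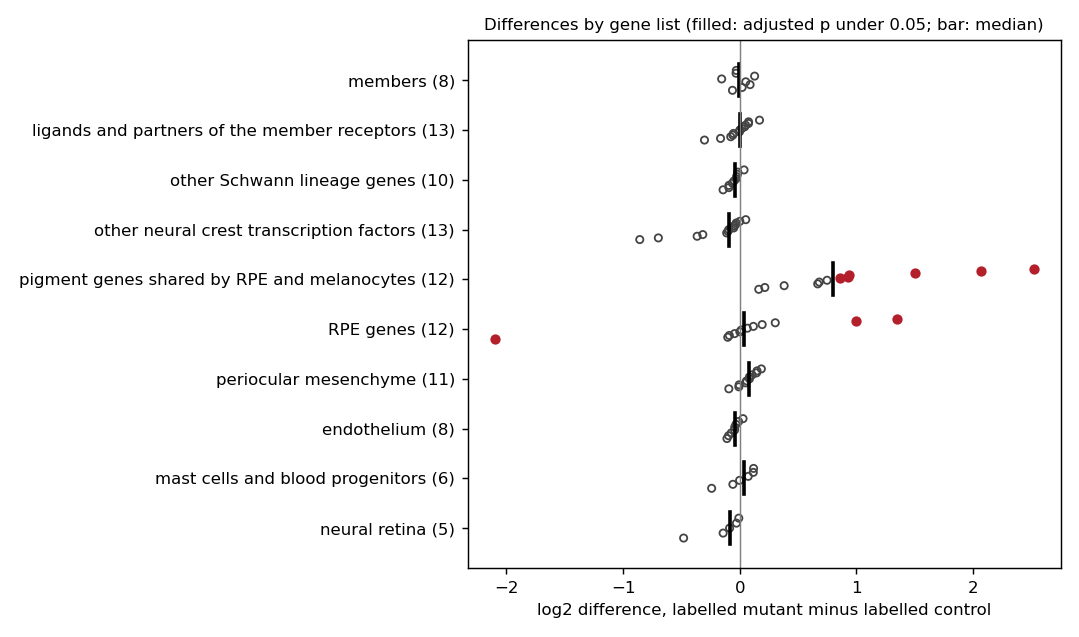
Log2 difference, labelled mutant minus labelled control (x axis), of each gene in the 8 marker genes (top row, members) and the 9 other lists, with the number of genes measured in brackets. Filled points have an adjusted p under 0.05 and vertical bars are medians: filled points occur in the lists of pigment genes and RPE genes, and the marker genes lie between -0.16 and 0.13.

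Other transcription factors of the neural crest ranged more widely than the marker genes, from -0.86 to 0.05. Of 14 listed, 13 were analysed here, and 0 of 13 passed limma's test after adjustment, while 4 of 13 had an unadjusted p under 0.05 (6.07% over all probe sets), all of them with a lower mean under the mutant label. By the methods' t-test 3 of 13 passed without adjustment (5.63% over all probe sets). *Msx2*, a homeobox factor of the crest and also of the optic cup, was at 5.40 ± 0.35 under the control label and 4.54 ± 0.13 under the mutant label, each mutant-labelled array being below each control-labelled one. The difference was -0.86 (95% interval from -1.23 to -0.48, adjusted p = 0.12). The study reported *Msx2*, which it describes as promoting retina, as higher in its mutant on these arrays. Its difference was thus known in advance, and the sign here is opposite to that report. *Msx2* passed in 1 of 14 alternatives, without control replicate 1, the lowest of its group (difference -1.05, adjusted p = 0.0098). With other arrays left out it did not pass, for example without mutant replicate 2 (difference -0.79, adjusted p = 0.49). *Zic1*, a zinc finger factor of the dorsal neural tube and crest, read 5.96, 5.82 and 6.07 against 5.62, 5.20 and 4.93 (difference -0.70, 95% interval from -1.07 to -0.33, adjusted p = 0.26). The remaining genes with an unadjusted p under 0.05 were *Sox9*, at 8.24 ± 0.07 and 7.92 ± 0.15 (adjusted p = 0.40), and *Rxrg*, at 5.53 ± 0.09 and 5.17 ± 0.28 (adjusted p = 0.71). SOX9 is a factor of the RPE itself as well as of the crest. In the list 11 of 13 differences were below 0 (11709 of 23410 over all probe sets), with a median of -0.09.

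Pigment genes that the RPE shares with melanocytes differed on these same arrays. Most of them are among the genes that the study reported from these arrays, as lower in its mutant. Their differences were thus known in advance, and the signs here are opposite to that report. The tubes were moreover sorted by pigmentation, so the groups were not formed independently of these genes. Of the 12 genes measured, 6 rose under the mutant label, 0 fell and 6 did not pass (0.363% called over all probe sets). All 12 differences were above 0, beside 11701 of all 23410 probe sets, with a median of 0.80. By the methods' t-test, in which no probe set of the table passed after adjustment, 9 of 12 passed without it (5.63% over all probe sets). *Gpnmb*, a glycoprotein of the melanosome, read 7.03, 7.60 and 7.04 on the control-labelled and 9.67, 9.82 and 9.76 on the mutant-labelled arrays (difference 2.52, 95% interval from 2.18 to 2.86, adjusted p = 6.2e-04). *Mlana*, a melanosomal membrane protein, read 6.31, 6.70 and 6.32 against 8.36, 8.65 and 8.52 (difference 2.07, 95% interval from 1.79 to 2.34, adjusted p = 6.2e-04). Both genes left a gap of more than 1 log2 unit between the groups. *Gpr143*, a melanosomal receptor, went from a mean of 4.60 to 6.11. The differences of the other called genes were 0.94 for the melanin enzyme gene *Tyrp1*, 0.93 for the transporter gene *Slc45a2* and 0.86 for *Rab27a*, which moves melanosomes. The lowest interval among the 6 genes that rose began at 0.58 (*Rab27a*), above the upper end of every marker gene's interval, but these 6 are the genes that passed. Intervals of *Mitf*, *Dct* and *Oca2*, which did not pass, overlapped those of marker genes. The count of 6 became 2 without mutant replicate 2 or 3, 3 without control replicate 3 or mutant replicate 1, and 2 when unnamed probe sets were tested as well, with no gene falling.

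*Mitf*, the regulator that both pigment lineages share, read 6.87, 7.44 and 7.43 on the control-labelled and 7.43, 7.72 and 7.73 on the mutant-labelled arrays. Its groups overlapped at mutant replicate 1, and the difference was 0.38 (95% interval from 0.01 to 0.75, adjusted p = 0.80). *Dct*, whose promoter drives Cre, had a difference of 0.21 (adjusted p = 0.91). *Oca2*, a melanosomal transporter, had one of 0.16 (adjusted p = 0.98).

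**Figure D3:**
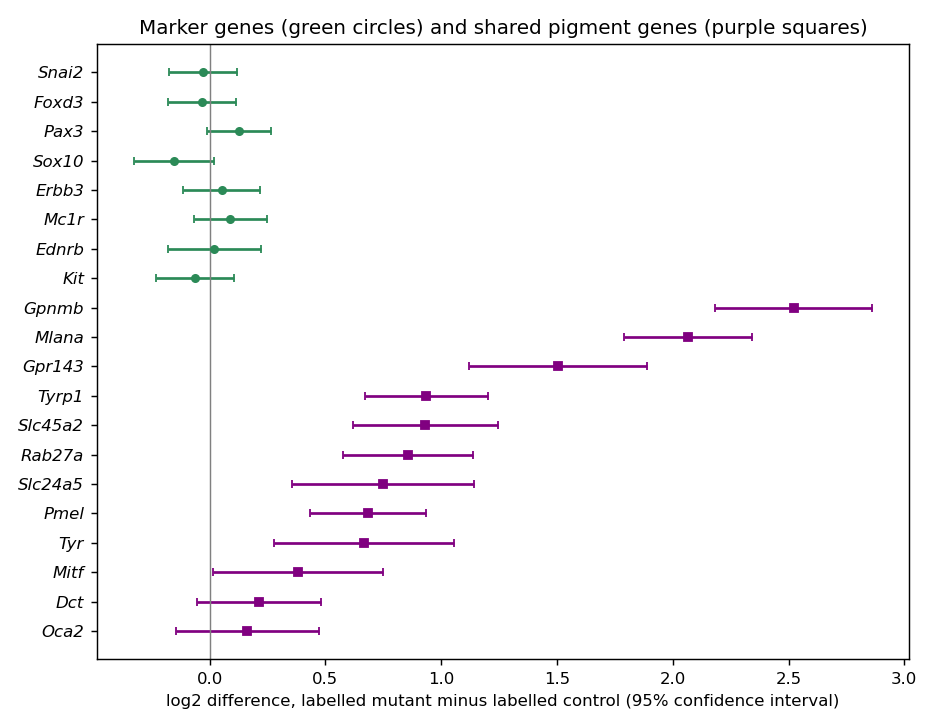
Log2 difference, labelled mutant minus labelled control, with its 95% confidence interval from limma (x axis) for the 8 marker genes (circles) and the 12 pigment genes (squares). The marker genes' intervals all include 0 and end at or below 0.26, and those of the 6 pigment genes that rose begin at 0.58 or above.

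Per array, the mean of the pigment genes separated the groups and that of the marker genes did not. Most of these pigment genes were reported by the study as changed on these same arrays. The separation of their mean was thus given in advance and is not a test. The mean log2 signal over the 8 marker genes was 6.42, 6.52 and 6.46 on the control-labelled and 6.44, 6.48 and 6.49 on the mutant-labelled arrays, 6.47 ± 0.05 and 6.47 ± 0.03 by group (SD, n = 3). Their summed linear signal ranged from 1010 to 1119 and from 1051 to 1103, so the mutant-labelled range lay inside the control-labelled range. The 12 pigment genes had a mean of 7.85 ± 0.25 and 8.82 ± 0.11, and their summed signal ranged from 4040 to 5425 and from 7555 to 8463, with no overlap. Control replicate 1 was the lowest of the 6 arrays both for the pigment genes, at 7.57, and for the marker genes.

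Genes of neighbouring tissues varied between arrays of the same group. The mean of 5 neural retina genes was 7.23, 5.68 and 6.58 on the control-labelled and 6.96, 6.50 and 5.57 on the mutant-labelled arrays, a wider range than that of the marker genes, and it did not separate the groups. Replicate 1 was the highest for these retina genes in each group. The mean of 8 endothelial genes ranged from 7.78 to 8.22 under the control label and from 7.85 to 8.06 under the mutant label, and here replicate 1 was the lowest in each group. Of the 6 arrays, control 1 and mutant 1 were the lowest 2 for the marker gene mean, *Ednrb*, *Edn3* and the endothelial mean, and the highest 2 for the neural retina. Among the single marker genes only *Ednrb* had these arrays as its lowest, and *Foxd3* was highest on control 1. The part of these neighbouring tissues in the marker signals was not tested.

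By list, 0 of 5 neural retina genes, 0 of 8 endothelial genes, 0 of 11 periocular mesenchyme genes and 0 of 6 genes of mast cells and blood progenitors passed limma's test between the groups. Without adjustment these counts were 0, 0, 1 and 1 by limma (6.07% over all probe sets) and 0, 0, 2 and 1 by the methods' t-test (5.63%). Among the mast cell genes, which share cells with *Kit*, *Cpa3*, a mast cell protease, was at 6.80 ± 0.11 and 6.56 ± 0.06 (difference -0.24, adjusted p = 0.51, groups not overlapping). *Fcer1a* and *Ms4a2*, subunits of the mast cell IgE receptor, were at 2.66 and 2.62 in the control-labelled group and below the reference percentile of the dim receptor genes on all 6 arrays. The endothelial genes, which share cells with *Ednrb*, were above it on all arrays: *Kdr*, the VEGF receptor of endothelium, was at 9.09 ± 0.11 and 8.98 ± 0.14 (difference -0.11, adjusted p = 0.97) and *Pecam1* at 7.52 ± 0.31 and 7.43 ± 0.14 (difference -0.10, adjusted p = 0.99).

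So were the mesenchyme genes, which share cells with *Snai2*. *Col1a1*, a collagen chain, was at 12.36 ± 0.02 and 12.46 ± 0.06 (difference 0.11, adjusted p = 0.91) and *Foxc2*, a factor of periocular mesenchyme, at 7.27 ± 0.05 and 7.46 ± 0.06 (difference 0.19, adjusted p = 0.57). The mean of the 11 mesenchyme genes ranged from 9.81 to 9.86 under the control label and from 9.78 to 10.00 under the mutant label.

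**Figure D4:**
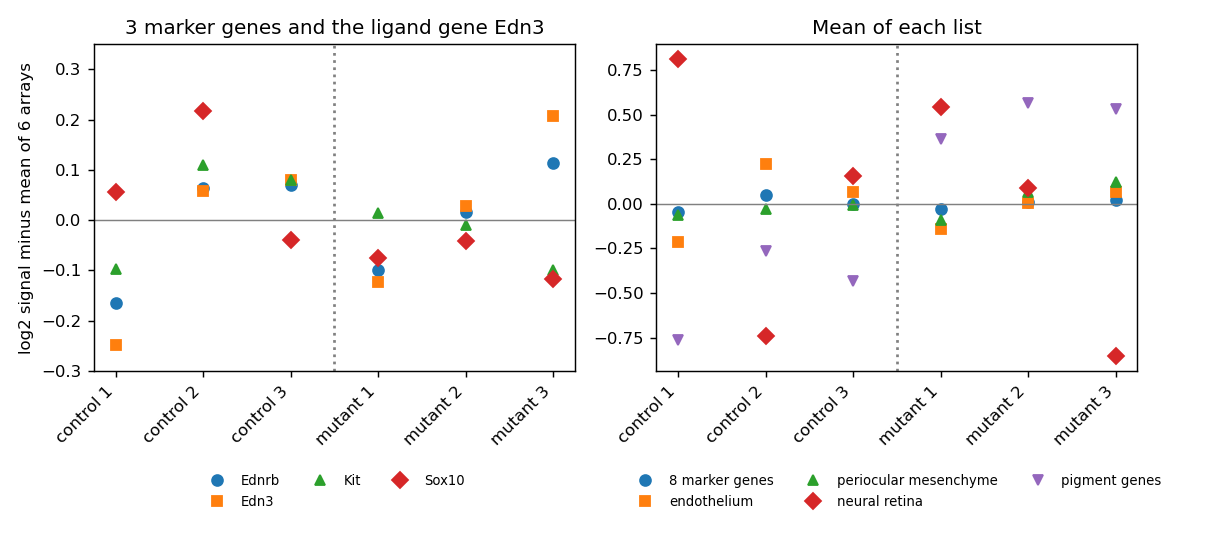
Log2 signal on each array minus the mean of the 6 arrays (y axis), for *Ednrb*, *Edn3*, *Kit* and *Sox10* (left) and for the mean of each list (right), with a dotted line between the arrays labelled control and mutant. *Ednrb* and *Edn3* are lowest on control 1 and mutant 1, where the neural retina mean is highest, and the pigment mean separates the groups while the mean of the 8 marker genes stays within 0.05 of its average.

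*Sox10* varied the most of the 8 over the 6 arrays (SD 0.12, at the percentile 70.8 of all named probe sets). The genes whose deviations from their own mean lay closest to its deviations were *Sfrp4*, which encodes a secreted Wnt antagonist (root mean square difference 0.025 on the log2 scale), *Parvb*, a focal adhesion protein (0.029), and the odorant receptor gene *Olfr101* (0.030), each over 6 arrays. *Olfr101* itself had a log2 signal between 2.60 and 2.87, at the dim end of the scale. The differences between the groups were -0.14 for *Sfrp4*, -0.19 for *Parvb* and -0.12 for *Olfr101*, none past the test (adjusted p from 0.73 to 0.91). *Sfrp4* and *Parvb* are in no list used here, and *Olfr101* belongs to the class of genes used as the dim reference.

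Promoters were read for a motif of MITF, which regulates many pigment genes. MITF binds E-boxes, and a common form of its site is CATGTG, searched with its reverse complement CACATG in the window from 250 bases before to 50 bases after a gene's start in RefSeq (GRCm38.p6). Of the 8 marker genes 4 had such a window (*Kit*, *Ednrb*, *Mc1r* and *Foxd3*), and 1 of the 4, *Mc1r*, held the motif, in 2 places. Of the 12 pigment genes 8 had a window and 5 held the motif (*Tyr*, *Tyrp1*, *Dct*, *Slc24a5* and *Oca2*), beside 14.2% of all 32851 promoters of this length. The stretches before the start of *Mc1r* (chr8:123407000-123407056, plus strand), *Tyr* (chr7:87493513-87493553, minus strand) and *Tyrp1* (chr4:80834147-80834192, plus strand) are shown, with the motif in capitals, to set the marker gene that has it beside pigment genes that have it.
*Mc1r*: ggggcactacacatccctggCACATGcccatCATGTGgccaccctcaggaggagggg
*Tyr*: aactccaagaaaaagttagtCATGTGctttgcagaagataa
*Tyrp1*: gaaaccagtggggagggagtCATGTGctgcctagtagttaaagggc
The same 6 letters thus stood before a gene with a difference of 0.09 (*Mc1r*), one of 0.67 that did not pass (*Tyr*, adjusted p = 0.34) and one of 0.94 that did (*Tyrp1*, adjusted p = 0.020). A match of letters is not a measured binding site, and a window without them says nothing of the factor. The match in *Tyrp1* lies in a site for MITF, the M-box, that the study examined. In its reporter assays, a mouse *Tyrp1* promoter with this box deleted or mutated responded less to MITF and PAX6 together. The study reported no such assay for *Mc1r*.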

How the data were processed

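RPE of E15.5 embryos was profiled on 6 arrays, each from 300 ng of total RNA. The authors deposited log2 values per probe set and array. Partek is named in the submitters' processing notes. Its version is not given in the sources used here, and neither is how probes were corrected for background and summarized. The authors' deposited table of group means also holds p-values, ratios and fold scores, which were not used. Groups and replicate numbers come from the sample labels. The study's methods treat each tube of pooled RPE as a biological repeat. Of 35556 probe sets, 23410 had a gene symbol in the platform annotation (21789 exactly 1, 1621 several) and 12146 were unnamed.

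limma 3.58.1 in R 4.3.3 (functions lmFit and eBayes, no covariates) compared the groups over all named probe sets, with Benjamini-Hochberg adjustment and a threshold of 0.05. All adjusted p-values are limma's. The fit was tested on simulated data, with values drawn independently and shifts far larger than the marker genes' differences. That test therefore says nothing of differences as small as theirs. The number of arrays limits the precision. The members and the gene lists were chosen with earlier results of these data known. Named genes are the 8 markers, *Pax6*, 7 ligands and regulators (*Kitl*, *Edn3*, *Asip*, *Pomc*, *Nrg1*, *Erbb2* and *Mitf*), in each other list the 2 genes of smallest p, and the 3 closest profiles to *Sox10*. Other genes were named after their values were seen. Alternatives were other tests, variance models, filters, scalings, probe set rules, a replicate block and each array left out.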

Additional observations from a re-analysis of the deposited data

How the results depend on the processing

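No marker gene passed the test under any of the 15 alternatives (the methods' t-test, variance models, scalings, filters, a replicate block, and each array left out). A filter on dim probe sets left out 3 of them, *Mc1r*, *Pax3* and *Foxd3*. The lowest adjusted p over the alternatives was 0.55 for *Pax3* and 0.73 for *Sox10*. Between control and mutant arrays of the same replicate number, the deviations from the group means correlated at 0.37, -0.06 and 0.075. These 3 values do not settle whether replicate numbers pair the samples. With the replicate block, 0 of 8 markers and 11 of 90 other list genes were called. The main count of 9 of 90 fell to 0 with the methods' t-test, in which 0 of all 23410 probe sets passed, and to 4 when unnamed probe sets were tested too. With 1 array left out it ranged from 4 to 11 (5 without the third control array, 4 without the second or the third mutant array), and the pigment genes among them from 2 to 7, where the main count was 6. The median over the marker genes was -0.0049 and moved between -0.027 and 0.031.

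Signs turned for uncalled genes with 1 array left out. The differences ranged from -0.057 to 0.075 for *Ednrb*, -0.073 to 0.0027 for *Foxd3*, -0.060 to 0.012 for *Snai2*, -0.031 to 0.16 for *Edn3*, -0.15 to 0.025 for *Pomc*, -0.0071 to 0.046 for *Erbb2*, -0.26 to 0.038 for *Pecam1*, -0.96 to 0.089 for *Sox2* and -0.67 to 0.37 for *Stmn2*. Over all alternatives, *Sox10* stayed between -0.21 and -0.09 and *Pax3* between 0.10 and 0.16. The causes were not tested.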

Other observations

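Among RPE genes that are not pigment genes, 2 of 12 rose under the mutant label, 1 fell and 9 did not pass (0.363% called over all probe sets). *Ttr*, which encodes the carrier transthyretin, read 10.87, 10.91 and 11.40 in log2 signal on the control-labelled and 8.94, 8.90 and 9.02 on the mutant-labelled arrays (difference -2.10, adjusted p = 8.8e-04). *Rrh*, which encodes peropsin, read 5.19, 4.80 and 5.22 against 6.46, 6.45 and 6.34 (difference 1.35, adjusted p = 0.0030). The groups were far apart for both genes, in opposite directions. *Rlbp1*, a retinoid carrier, was the other gene that rose, from a mean of 7.40 to 8.40.

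In the neural retina list, *Sox2*, a progenitor factor, ranged from 4.81 to 7.28 and *Stmn2*, a neuronal tubulin-binding protein, from 6.26 to 8.43 over the 6 arrays. Neither separated the groups: the differences were -0.48 and -0.14 (adjusted p = 0.99 for each).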
